A study of Mus musculus with 3 samples.

Results

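Transcripts of the surfactant proteins and of 6 further genes that alveolar type 2 cells use to make, store and renew surfactant were followed across 3 lung libraries. The 10 genes, Sftpa1, Sftpb, Sftpc, Sftpd, Abca3, Napsa, Lamp3, Etv5, Slc34a2 and Lpcat1, were picked by symbol for their known roles, though earlier results of these data were known. All 10 were present among the 23183 genes listed. The RNA came from whole lung homogenates of female BALB/c mice, for which 1 label gives an age of 10 weeks and another 5 to 6 weeks. Control mice carry that single word as their label, and whether they received saline is not said. The PM10 library came from mice given PM10 (airborne particles of the inhalable size class, here a certified reference dust) in 20 µL of saline into the nose 4 times over 2 weeks, at 100 or 200 µg, without a statement of which dose was sequenced. The OVA+PM10 library came from mice that had the same particles and were also sensitised to ovalbumin (OVA, an egg-white protein used to model allergic asthma) by injections into the peritoneum of 20 µg with aluminium hydroxide, the last on day 14, and challenged through the nose with 30 µL at 1 mg/mL on days 21, 22 and 23. Each group had 5 mice, but whether a library held the RNA of 1 mouse or of several is not stated, and OVA alone was not analysed here. Lungs were taken 2 days after the last challenge.

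Pulmonary surfactant is a film of lipid and protein that lowers surface tension in the air spaces and keeps the alveoli open. Type 2 cells assemble its phospholipids, pack them with the small hydrophobic proteins SP-B and SP-C into lamellar bodies, secrete them, and take part of the material up again, while alveolar macrophages break down the rest. SP-A and SP-D are collectins, soluble lectins that bind microbes and particles and mark them for uptake. Airway club cells share the transcripts of SP-A, SP-B and SP-D, so that in a whole lung homogenate SP-C is the most specific of them for type 2 cells.

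Values are FPKM, fragments per kilobase of transcript and 1000000 mapped, so that levels can be set side by side between genes. As a measure of depth, the lowest values put 1 read on a transcript of 1 kb at about 0.0499 FPKM in control lung, 0.0759 FPKM with PM10 and 0.0659 FPKM with OVA+PM10, so that the control library was the deepest and PM10 the shallowest. With 1 library in each group there was no replicate error, no test was possible, and every difference below compares libraries and not treatments. Lung markers were present in all 3 libraries, with the type 1 cell gene Ager between 639 and 1777 FPKM and the club cell gene Scgb1a1 between 42979 and 65013 FPKM. The control library stood apart in 1 respect: its 14 squamous epithelium genes summed to 6152 FPKM and its 12 skeletal muscle genes to 4194 FPKM, against at most 3.21 and 24.2 FPKM in the exposed libraries. These were 1.13% and 0.768% of its summed FPKM, and their part in the ratios to control was not tested. The summed FPKM was 546315 in the control, 1293180 in the PM10 and 855739 in the OVA+PM10 library, so that scaling to the same sum lowers the log2 ratios to control of well expressed genes by about 1.24 for PM10 and 0.65 for OVA+PM10, and those of low genes by less because of the added 1 FPKM. Levels and directions below are those of the deposited values, on which the median gene lay near 0. The effect of that scaling is given for the 10 genes, for the lists with counts, and for only some of the other genes.

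The 10 genes covered a wide range of levels. The highest member exceeded the lowest 552-fold in control lung, 5245-fold with PM10 and 1242-fold with OVA+PM10. Sftpc led the members everywhere and ranked 2 among all genes in control lung, 1 with PM10 and 3 with OVA+PM10. Sftpa1, Sftpb and Sftpd filled the next 3 places in each library, in a different order in each. Napsa, Slc34a2 and Lamp3 lay in the middle, and Lpcat1, Abca3 and Etv5 at the bottom. By the longest annotated transcript, the read number behind a member ran from about 523 for Lpcat1 in the PM10 library to about 591086 for Sftpc there. With no replicates, whether neighbours in this order differ beyond the spread between animals cannot be said.

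**Figure D1:**
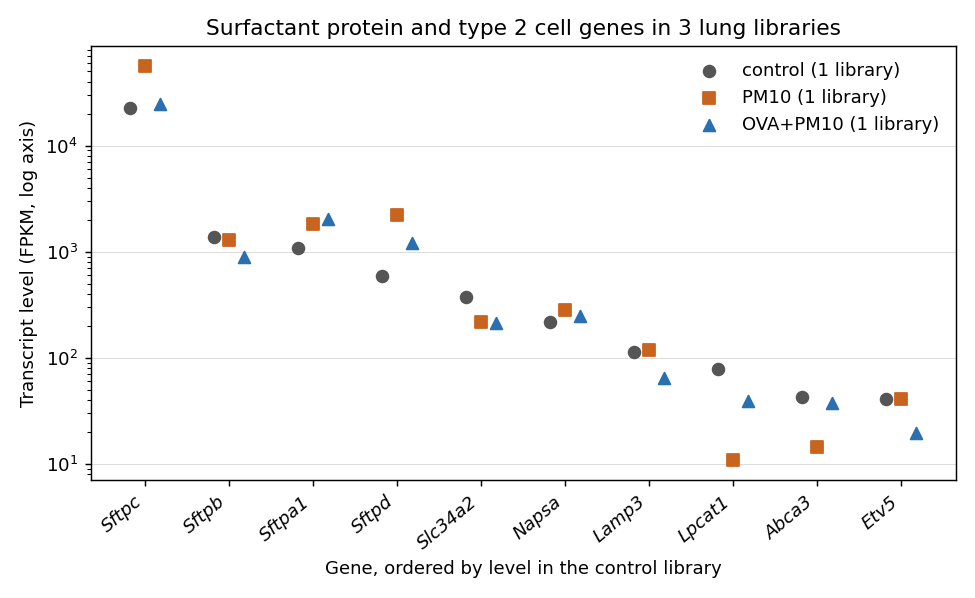
Transcript level (FPKM, log axis) of the 10 genes in the control (circles), PM10 (squares) and OVA+PM10 (triangles) libraries, 1 library per group and no error bars for that reason. Sftpc lies at 22645 FPKM or more in each library, and the widest gap between libraries is that of Lpcat1, at 78.7 FPKM in the control and 10.8 FPKM in the PM10 library.

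Of the 4 surfactant proteins, SP-C and SP-D transcripts exceeded control 2.50-fold and 3.79-fold with PM10, SP-A exceeded it 1.69-fold, and SP-B was level. In bulk tissue, a different number of type 2 cells and a different amount of RNA in each of them cannot be told apart. Sftpc (chromosome 14, 70520949 to 70524081, minus strand, mm10) encodes the hydrophobic SP-C. It stood at 22645 FPKM in the control, 56646 FPKM in the PM10 and 24439 FPKM in the OVA+PM10 library. The PM10 library was thus high and the other 2 lay within 1.08-fold of each other, with log2 ratios of FPKM + 1 to control of 1.32 and 0.11. As a share of the summed FPKM, however, Sftpc took 4.15% in the control, 4.38% in the PM10 and 2.86% in the OVA+PM10 library, and on that scale its log2 ratios were 0.08 and -0.54.

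Sftpb (chromosome 6, 72304610 to 72314371) encodes SP-B, the surfactant protein without which newborns cannot breathe. It had 1383 FPKM in the control, 1279 FPKM in the PM10 and 895 FPKM in the OVA+PM10 library. It was the single surfactant protein gene whose highest value was in the control library, with log2 ratios of -0.11 and -0.63. It stayed lower in both exposed libraries under the 4 other scalings and with the trend over transcript length removed. The ratios were -1.36 and -1.27 with scaling to the same sum, and -0.69 and -0.98 with that trend removed.

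The collectin genes Sftpa1 (chromosome 14, 41131782 to 41136452) and Sftpd (chromosome 14, 41172214 to 41185149, minus strand) lie 35.8 kb apart. Sftpa1 had 1084 FPKM in the control, 1829 FPKM in the PM10 and 2049 FPKM in the OVA+PM10 library. Both exposed libraries were higher, by log2 ratios of 0.75 and 0.92, short of 2-fold, and scaling to the same sum left -0.49 and 0.27. Sftpd had 588 FPKM in the control, 2228 FPKM in the PM10 and 1200 FPKM in the OVA+PM10 library. It was 3.79-fold and 2.04-fold above control, log2 ratios of 1.92 and 1.03, the second just past 2-fold. In both comparisons it stayed above 0 under the 4 other scalings and with the trend over transcript length removed. The smallest ratios were 0.68 and 0.05, and those with the same sum 0.68 and 0.38. Within a library, Sftpa1 exceeded Sftpd 1.84-fold in the control and 1.71-fold in the OVA+PM10 library, and fell short of it in the PM10 library, at 0.821 of its level.

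To show the sequence context of genes that differed in this way, the bases before the start are given for 3 genes. They are Sftpb (level with PM10 as deposited), Sftpa1 (higher in both exposed libraries as deposited) and Lpcat1 (the lowest ratio, described below). They come from RefSeq's GRCm38.p6, the assembly that mm10 names and that of C57BL/6J rather than BALB/c mice, plus strand, at chr6:72304360-72304609, chr14:41131538-41131781 and chr13:73466981-73467196. Capitals mark CTCAAG, on either strand, a sequence bound by NKX2-1, the homeodomain factor of lung epithelium that drives surfactant genes.
Sftpb: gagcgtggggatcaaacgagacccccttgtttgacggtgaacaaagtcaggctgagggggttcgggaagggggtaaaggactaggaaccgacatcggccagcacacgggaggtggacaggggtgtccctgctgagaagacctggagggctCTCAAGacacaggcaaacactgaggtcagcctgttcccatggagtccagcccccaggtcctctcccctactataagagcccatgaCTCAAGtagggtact
Sftpa1: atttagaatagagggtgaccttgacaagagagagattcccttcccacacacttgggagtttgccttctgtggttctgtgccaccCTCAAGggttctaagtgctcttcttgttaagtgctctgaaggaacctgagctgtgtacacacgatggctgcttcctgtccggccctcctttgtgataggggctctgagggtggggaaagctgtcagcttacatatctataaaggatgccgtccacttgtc
Lpcat1: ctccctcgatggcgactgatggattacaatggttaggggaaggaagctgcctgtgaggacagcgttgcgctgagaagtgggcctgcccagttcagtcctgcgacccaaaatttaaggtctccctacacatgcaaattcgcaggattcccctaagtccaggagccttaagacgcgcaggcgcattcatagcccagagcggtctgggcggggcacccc
The first base of CTCAAG lay 100 and 15 bases before the RefSeq start in Sftpb and 166 bases before it in Sftpa1, and the Lpcat1 stretch held none. RefSeq windows of 300 bases (250 before the start and 50 after it) were at hand for 7 of the 10 genes, 8 windows in all, and not for Sftpc, Sftpd or Napsa. CTCAAG was in 2 of these 8 windows and in 15.9% of all 32851 windows. TGTTTAC, a FOXA sequence, was in 2 (Lamp3 and 1 of the Etv5 windows) against 3.65% of all. CCGGAA (ETS factors) was in 1 (Abca3) against 14.9%, TTGCNNAA (C/EBP factors) in 1 (Slc34a2) against 10.8%, and the sequence AGATAA of GATA factors in 0 against 11.2%, all counted on both strands. These are matches of letters in short windows and say nothing of binding.

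The 6 genes of lamellar bodies, surfactant lipid and type 2 cell identity did not all share 1 order across the libraries. Lpcat1 (chromosome 13, 73467197 to 73516422) encodes the acyltransferase that makes the saturated phosphatidylcholine of surfactant. It had 78.7 FPKM in the control, 10.8 FPKM in the PM10 and 39.5 FPKM in the OVA+PM10 library. It was lower in both exposed libraries, 7.29-fold with PM10 and 1.99-fold with OVA+PM10 (log2 ratios of -2.76 and -0.98). The direction held under the 4 other scalings and with a trend over transcript length removed. With the same sum the ratios were -3.96 and -1.62. Its PM10 ratio lay at percentile 1.95 of the 13693 genes with at least 1 FPKM in either library, and that of Sftpd, at the other end, at percentile 97.4.

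Abca3 (chromosome 17, 24351950 to 24410201) encodes the transporter that loads phospholipid into lamellar bodies. It had 42.3 FPKM in the control, 14.3 FPKM in the PM10 and 37.6 FPKM in the OVA+PM10 library. As deposited, it was low in the PM10 library alone, 2.95-fold below control (log2 ratio -1.50), and near control with OVA+PM10 (-0.17). Lamp3 (chromosome 16, 19653378 to 19706375, minus strand) encodes a glycoprotein of the lamellar body membrane. It had 113 FPKM in the control, 119.5 FPKM in the PM10 and 64.7 FPKM in the OVA+PM10 library. Its log2 ratios were 0.08 and -0.80, so that as deposited it was lowest with OVA+PM10. With scaling to the same sum, the PM10 and OVA+PM10 ratios were -2.70 and -0.81 for Abca3 and -1.15 and -1.44 for Lamp3. Both proteins belong to the same organelle, and as deposited their transcripts were low in different libraries. Abca3 per Lamp3 was 0.375 in the control, 0.120 in the PM10 and 0.581 in the OVA+PM10 library, a ratio that no scaling of a library changes. The trend over transcript length, described below, enters it, as the transcripts have 6476 and 3356 bases. With that trend removed, the PM10 log2 ratios were -0.93 for Abca3 and 0.07 for Lamp3.

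Napsa (chromosome 7, 44572380 to 44586862) encodes napsin A, an aspartic protease that trims the SP-B precursor. It had 219 FPKM in the control, 280.1 FPKM in the PM10 and 249.8 FPKM in the OVA+PM10 library. The 3 libraries lay within 1.28-fold of each other, log2 ratios of 0.35 and 0.19, and scaling to the same sum turned both to -0.89 and -0.46. Sftpb per Napsa, substrate per protease, was 6.31, 4.57 and 3.58 in the same order of libraries.

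Slc34a2 (chromosome 5, 53038081 to 53071664) encodes the sodium phosphate cotransporter that clears phosphate released by phospholipid breakdown from the air spaces. It had 374 FPKM in the control, 219 FPKM in the PM10 and 214 FPKM in the OVA+PM10 library. Both exposed libraries were lower by nearly the same amount, log2 ratios of -0.77 and -0.80, short of 2-fold as deposited. With scaling to the same sum the ratios were -2.01 and -1.45, both past 2-fold. Etv5 (chromosome 16, 22381309 to 22439719, minus strand) encodes an ETS transcription factor that maintains type 2 cell identity downstream of fibroblast growth factor (FGF) signals. It had 41.0 FPKM in the control, 40.8 FPKM in the PM10 and 19.7 FPKM in the OVA+PM10 library. As deposited, the OVA+PM10 library was low and the other 2 level, though scaling to the same sum put the ratios at -1.23 and -1.67. Its deposited ratios were -0.01 and -1.02, the latter just past 2-fold, whereas Lpcat1 at -0.98 fell just short of it.

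In all, 2 of the 10 genes (Sftpd and Sftpc) exceeded control by 2-fold or more with PM10, as did 13.6% of all genes, and 2 (Lpcat1 and Abca3) lay 2-fold or more below it, as did 13.9%, or 27.6% of genes either way. For OVA+PM10 against control, 1 gene was higher (Sftpd, against 9.95% of genes) and 1 lower (Etv5, against 8.68%), with 18.6% of genes past 2-fold either way. These counts are close to the background, and as a group the genes had no common direction: their median log2 ratios were 0.04 and -0.40, beside 0.02 and -0.0017 over all genes, and scaling to the same sum moved the medians of the 10 to -1.19 and -1.04, with 6 and 5 of them then lower and 0 higher. Their single ratios ran from -2.76 to 1.92 for PM10 and from -1.02 to 1.03 for OVA+PM10. With the same sum, the whole transcriptome shifted too, to 262 genes higher and 7392 lower for PM10 and 652 and 3560 for OVA+PM10. Both comparisons share the control library.

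**Figure D2:**
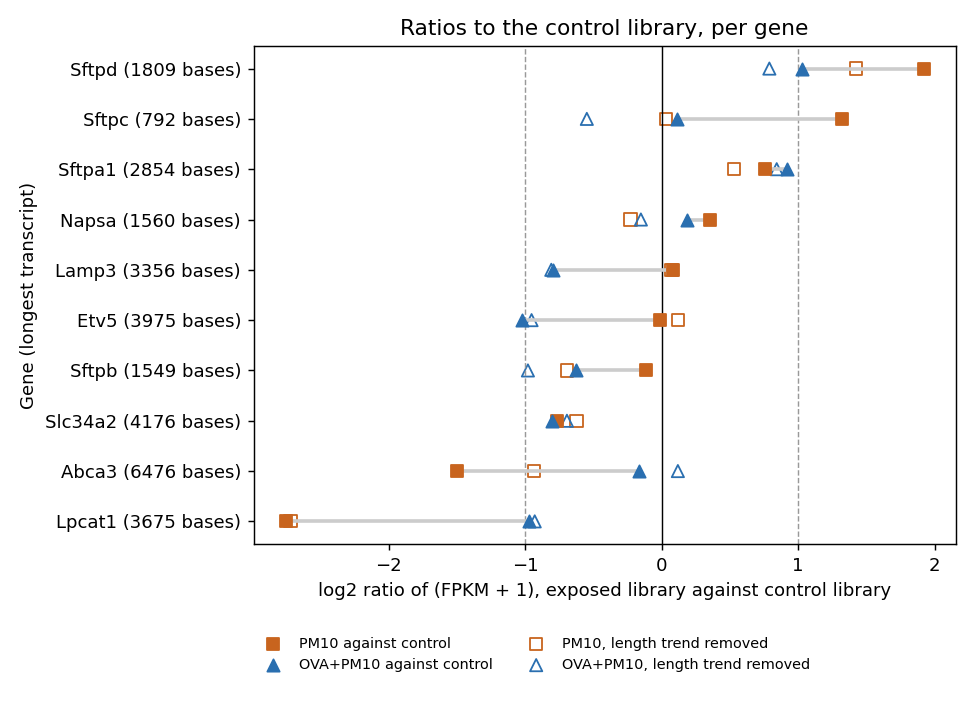
Log2 ratio of FPKM + 1 of the PM10 library (squares) and the OVA+PM10 library (triangles) to the control library for each gene, with the longest transcript in bases beside its name; open symbols have the trend over transcript length removed, and dashed lines mark 2-fold. Lpcat1 at -2.76 and Sftpd at 1.92 lie at the ends for PM10, and without the trend Sftpc moves from 1.32 to 0.03.

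Transcript length moved with these ratios across the whole transcriptome, and part of the contrast between Sftpc and Abca3 follows it. Sorted into 10 equal classes by length, genes had median log2 ratios for PM10 of 1.08 in the shortest class (121 to 1277 bases) and -0.77 in the longest (6612 bases or more). For OVA+PM10 the shortest class (126 to 1296 bases) stood at 0.62 and the longest (6640 bases or more) at -0.35. Sftpc has the shortest transcript of the 10, at 792 bases, and Abca3 the longest, at 6476 bases. Genes as short as Sftpc had a running median of 1.29 for PM10, so that its own 1.32 exceeded them by 0.03. For OVA+PM10 it lay 0.55 below genes of its length. Abca3 lay 0.93 below genes of its length for PM10, short of 2-fold. Lpcat1, with a transcript of 3675 bases near the middle of the range, stayed at -2.72, and Sftpd, with 1809 bases, at 1.42. With this trend removed, 1 gene was higher (Sftpd, against 7.70% of genes) and 1 lower (Lpcat1, against 11.3%) for PM10. None passed 2-fold either way for OVA+PM10 (against 7.59% higher and 8.37% lower). There the ends were Sftpa1 at 0.84 and Sftpb at -0.98, with Sftpd at 0.79 and Etv5 at -0.95.

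**Figure D3:**
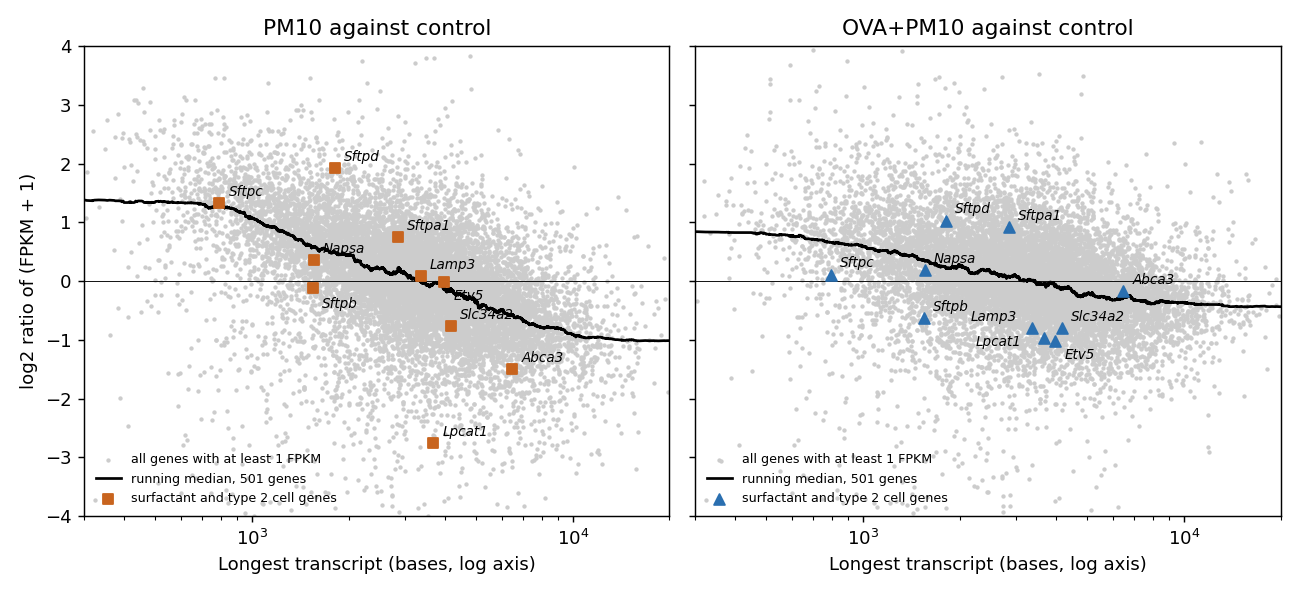
Log2 ratio of FPKM + 1 to the control library against the longest annotated transcript (bases, log axis) for all genes with at least 1 FPKM in either library (grey points), their running median (line) and the 10 genes (squares for PM10, triangles for OVA+PM10); 159 and 150 genes lie outside the axes. The running median falls from short to long transcripts, Sftpc lies on it for PM10, and Lpcat1, taken relative to it, lies at -2.72.

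Between the exposed libraries, Lpcat1 and Abca3 stood on one side and Sftpc and Etv5 on the other. Against PM10, the OVA+PM10 library had 2 genes at least 2-fold higher, Lpcat1 (3.66-fold, log2 ratio 1.78) and Abca3 (2.62-fold, 1.33), where 11.8% of genes were. It had 2 genes lower, Sftpc (2.32-fold, -1.21) and Etv5 (2.07-fold, -1.01), where 9.00% of genes were, against 20.8% past 2-fold either way. Sftpd (-0.89) and Lamp3 (-0.87) were next on the lower side. Sftpb had -0.51, Napsa -0.16 and Slc34a2 -0.04, and Sftpa1 had 0.16. Scaling to the same sum turned Sftpb to 0.08, Napsa to 0.43 and Slc34a2 to 0.56. It left 0 of the 10 genes at least 2-fold lower, where 341 of all genes were lower and 3354 higher. The median of the 10 was -0.34, beside -0.03 over all genes. With the length trend removed, Sftpc stood at -0.58 and the other 3 remained past 2-fold, Lpcat1 at 1.77, Abca3 at 1.12 and Etv5 at -1.04, so that 2 were higher (against 12.0% of genes) and 1 lower (against 6.65%).

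The make-up of the surfactant transcripts, which does not depend on how libraries are scaled, also differed. Of the summed FPKM of the 4 surfactant proteins, Sftpc made up 88.1% in control lung, 91.4% with PM10 and 85.5% with OVA+PM10. Sftpc per Sftpb was 16.4 in the control, 44.3 in the PM10 and 27.3 in the OVA+PM10 library, the control lowest. Per 1000 FPKM of Sftpc, Lpcat1 had 3.48, 0.191 and 1.62 FPKM and Slc34a2 16.5, 3.87 and 8.74 FPKM, in both cases with the control highest and PM10 lowest. Sftpc has the shortest transcript of the 10, so the length trend enters these ratios too. Lamp3, Etv5, Lpcat1 and Slc34a2 have transcripts of similar length, 3356 to 4176 bases. Among them, Lpcat1 per Lamp3 was 0.696 in the control, 0.0903 in the PM10 and 0.611 in the OVA+PM10 library, and Slc34a2 per Lamp3 was 3.31, 1.83 and 3.30. Etv5 per Lamp3 was nearly even, at 0.363, 0.341 and 0.304. In the plane of the 2 ratios to control, Lamp3 and Etv5 were the nearest pair of members, 0.25 apart on the log2 scale, and Sftpd and Lpcat1 the farthest, 5.09 apart.

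Other genes of surfactant lipid synthesis went both ways. On the lists from here on, as for the 10 genes, higher and lower in a count mean 2-fold or more, beside the 13.6% and 13.9% of all genes for PM10 and the 9.95% and 8.68% for OVA+PM10. Counts with the same sum stand beside 262 higher and 7392 lower of all genes for PM10 and 652 and 3560 for OVA+PM10. Of 22 measured, 21 had at least 1 FPKM in the control or PM10 library, and 3 of them were at least 2-fold higher and 1 lower with PM10 (median log2 ratio 0.19). With OVA+PM10, 1 of 22 was higher and 1 lower (median -0.13). Scaling to the same sum gave 0 higher and 11 lower for PM10 (median -1.03) and 0 and 3 for OVA+PM10 (median -0.75). Scd1, the desaturase that makes monounsaturated fatty acids, had 102 FPKM in the control, 327 FPKM in the PM10 and 173 FPKM in the OVA+PM10 library. Pcyt1a, which encodes the rate-limiting enzyme of phosphatidylcholine synthesis, had 22.4, 15.3 and 17.7 FPKM, all within 2-fold. Chpt1, which carries out the last step of that pathway, had 43.5, 51.6 and 43.0 FPKM, and its PM10 ratio of 0.24 turned to -0.98 with the same sum. Fatty acid synthase, Fasn, had 29.9, 16.9 and 25.6 FPKM, lowest with PM10 (-0.79) and within 2-fold. The fatty acid carrier Fabp5 had 630 FPKM in the control, 401 FPKM in the PM10 and 209 FPKM in the OVA+PM10 library, and its OVA+PM10 ratio of -1.59 was the 1 lower call.

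Genes that process, secrete and recycle surfactant were likewise mixed. With PM10, 2 of 19 were higher and 3 lower (median 0.19), and with OVA+PM10, 3 of 20 were higher and 1 lower (median 0.13). Scaling to the same sum gave 0 higher and 8 lower for PM10 (median -0.94) and 1 and 3 for OVA+PM10 (median -0.46), and it turned the PM10 ratios of Ctsh (0.85 to -0.39), Prdx6 (0.61 to -0.63) and Csf2rb (0.82 to -0.34) and the OVA+PM10 ratio of Prdx6 (0.14 to -0.51). Ctsh, a cathepsin that takes part in SP-B processing, had 133 FPKM in the control and 239 and 241 FPKM in the PM10 and OVA+PM10 libraries. Prdx6, which has the phospholipase activity of surfactant turnover, had 308, 472 and 339 FPKM. Adgrf5, the receptor through which the surfactant pool is held in check, had 100.03 FPKM in the control, 99.8 FPKM in the PM10 and 25.8 FPKM in the OVA+PM10 library. As deposited, it was low in the OVA+PM10 library alone (log2 ratio -1.91). With the same sum its ratios were -1.24 for PM10 and -2.56 for OVA+PM10. Lung endothelium, whose markers are given below, expresses Adgrf5 as well. Pgc, progastricsin, a protease that type 2 cells use on the SP-B precursor, was near 0 with 0.037 and 0.347 FPKM in the control and PM10 libraries and had 2.96 FPKM with OVA+PM10. Csf2rb, part of the receptor by which macrophages are driven to clear surfactant, had 9.93, 18.3 and 17.7 FPKM.

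Regulators of these genes lay mostly within 2-fold of control on the deposited scale, but not with scaling to the same sum, where 0 of 19 were higher and 11 lower for PM10 (median -1.38) and 1 higher and 8 lower for OVA+PM10 (median -0.93). As deposited, with PM10, 3 of 19 were higher and 1 lower (median -0.16), and with OVA+PM10, 1 was higher and 2 lower (median -0.29). Nkx2-1 itself had 40.5 FPKM in the control, 36.1 FPKM in the PM10 and 28.8 FPKM in the OVA+PM10 library. Cebpa, a partner in type 2 cell maturation, was level at 50.9, 50.6 and 53.7 FPKM. Foxa2 had 13.4, 36.2 and 17.3 FPKM, high in the PM10 library (1.37), while Foxa1, with 10.4, 7.14 and 17.6 FPKM, and Gata6, with 12.1, 7.62 and 9.40 FPKM, stayed within 2-fold. The epithelial ETS factor Elf3 had 11.2, 20.3 and 45.0 FPKM, high in the OVA+PM10 library (1.92). With the same sum, Foxa2 with OVA+PM10 (0.34 to -0.27), Cebpa with OVA+PM10 (0.08 to -0.56) and Elf3 with PM10 (0.80 to -0.36) turned. Beside Etv5, the list held other genes that FGF signalling induces, named here after their values were seen. Spry2 had 8.38, 10.2 and 2.22 FPKM and Dusp6 33.6, 40.2 and 20.5 FPKM, like Etv5 lowest in the OVA+PM10 library. The PM10 ratios of Spry2 (0.26) and Dusp6 (0.25) turned to -0.87 and -0.96 with the same sum. Spry4, with 5.27, 2.34 and 2.95 FPKM, was lowest with PM10, and Etv4 was below 0.2 FPKM throughout.

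Among other type 2 cell markers, 8 of 25 were at least 2-fold higher and 0 lower with PM10 (median 0.40), against 4 higher and 5 lower with OVA+PM10 (median -0.23). With the length trend removed, the PM10 counts were 6 and 2 and the median 0.09. Scaling to the same sum reversed the PM10 split, to 2 higher and 9 lower (median -0.83), beside 262 and 7392 of all genes. For OVA+PM10 it gave 3 higher and 12 lower (median -0.88), beside 652 and 3560 of all genes. The calcium-binding S100g, with 107, 644 and 197 FPKM, and the surfactant-associated Sfta2, with 49.1, 299 and 96.9 FPKM, have short transcripts of 480 and 694 bases. Like Sftpc, both were highest in the PM10 library as deposited. Their PM10 ratios stayed past 2-fold with the length trend removed (1.24 and 1.27) and with the same sum (1.34 and 1.35). Those of Sftpc were then 0.03 and 0.08. The lysozyme gene Lyz1 had 416, 991 and 221 FPKM, highest with PM10 and lowest with OVA+PM10. Its paralog Lyz2 is close in sequence, and how reads shared by both were assigned is unknown here. The chemokine Cxcl15 had 533, 1142 and 949 FPKM, the membrane mucin Muc1 53.7, 198 and 146 FPKM, and the chitinase-like Chil1 432, 1549 and 1906 FPKM. As deposited these 3 were higher in both exposed libraries, Cxcl15 under 2-fold with OVA+PM10. With the same sum, Cxcl15 turned to -0.14 for PM10, while Muc1 (0.63 and 0.79) and Chil1 (0.60 and 1.49) stayed above 0 in both. Complement C5, encoded by Hc, had 107, 160 and 102 FPKM and the alarmin Il33 33.6, 42.3 and 61.3 FPKM, both within 2-fold, and their PM10 ratios of 0.58 and 0.32 turned to -0.65 and -0.89 with the same sum.

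Genes linked to injury of type 2 cells and their passage to type 1 cells showed no common direction. With PM10, 3 of 17 were higher and 2 lower (median 0.26), and with OVA+PM10, 4 of 16 were higher and 3 lower (median 0.38). Removing the length trend gave 2 higher and 3 lower for PM10 (median -0.12) and 4 and 2 for OVA+PM10 (median 0.19). Scaling to the same sum gave 2 higher and 7 lower for PM10 (median -0.90) and 3 and 5 for OVA+PM10 (median -0.26), and it turned Krt8 with PM10 (0.43 to -0.80) and Cldn4 with OVA+PM10 (0.51 to -0.02). The keratin gene Krt8, a mark of the transitional state that airway cells also express, had 108 FPKM in the control, 146 FPKM in the PM10 and 316 FPKM in the OVA+PM10 library. Galectin 3, Lgals3, which macrophages express strongly, had 104, 835 and 407 FPKM. Cdkn1a, the p21 inhibitor of the cell cycle, had nearly even deposited levels of 33.9, 34.5 and 29.2 FPKM, and Cldn4 was low at 3.56, 1.82 and 5.50 FPKM. Sfn, also a gene of squamous epithelium, had 39.6, 6.92 and 12.9 FPKM, high in the library that held the squamous markers.

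**Figure D4:**
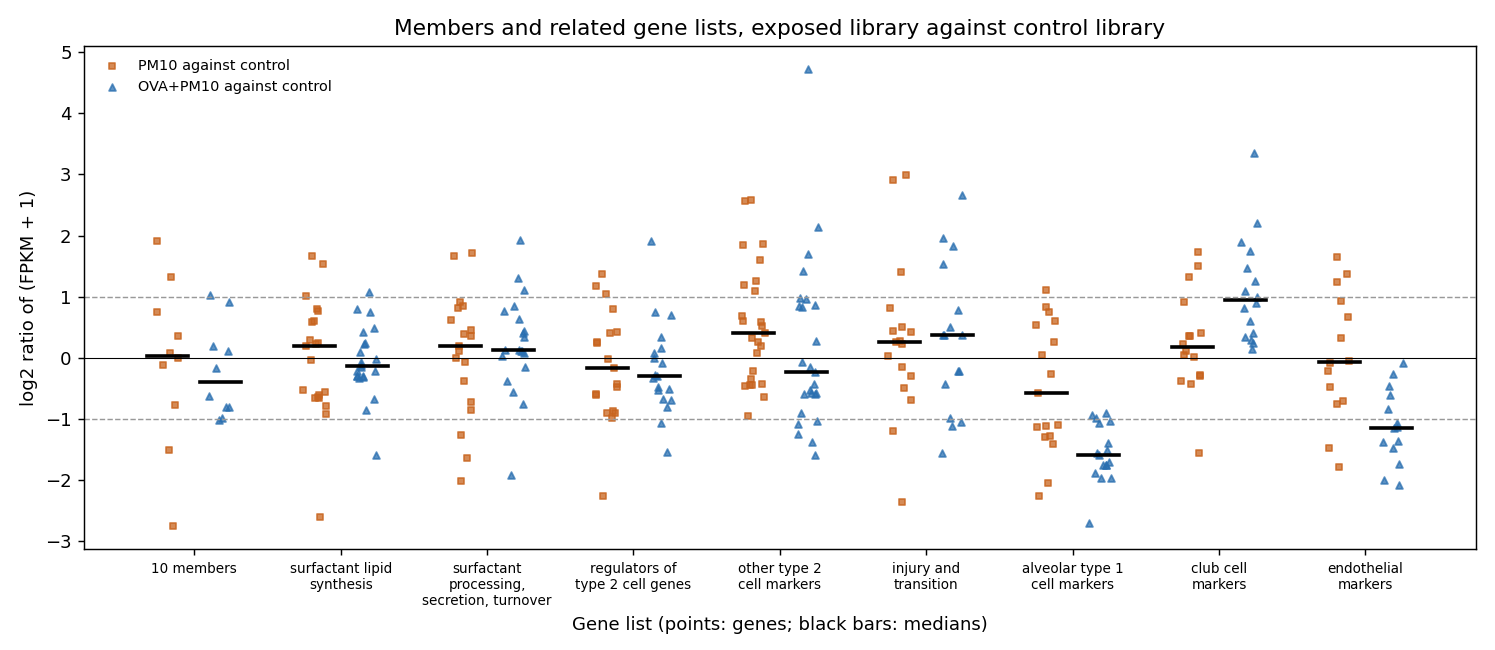
Log2 ratio of FPKM + 1 to the control library for the 10 genes and the members of 8 related lists with at least 1 FPKM in either library (points; squares for PM10, triangles for OVA+PM10), with list medians as black bars and 2-fold as dashed lines. The medians of the 10 genes lie at 0.04 and -0.40, and the lowest medians for OVA+PM10 are those of type 1 cell (-1.58) and endothelial (-1.14) markers.

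Markers of the cells next to type 2 cells moved between the libraries as well. Among 17 markers of type 1 cells, 8 were lower and 1 higher with PM10 (median -0.58), and 14 were lower and 0 higher with OVA+PM10 (median -1.58). Ager had 1228 FPKM in the control, 1777 FPKM in the PM10 and 639 FPKM in the OVA+PM10 library, and Hopx 472, 715 and 230.0 FPKM. Both went against most of their list with PM10 as deposited, with ratios of 0.53 and 0.60. These turned to -0.71 and -0.64 with the same sum, and stood at 0.08 and -0.23 with the length trend removed. Both genes had their lowest value with OVA+PM10. Of 14 endothelial markers, 3 were higher and 2 lower with PM10 (median -0.07), and 9 were lower with OVA+PM10 (median -1.14), with Pecam1 at 308, 221 and 139 FPKM. Of 16 club cell markers, which share cells with Sftpa1, Sftpb and Sftpd, 3 were higher and 1 lower with PM10 (median 0.17), and 8 were higher and 0 lower with OVA+PM10 (median 0.95). Their summed level was 51281, 60868 and 80803 FPKM, most of it Scgb1a1 at 42979, 50391 and 65013 FPKM. Of 12 general epithelial markers, 2 were higher and 1 lower with PM10 (median 0.37), and 6 were higher and 0 lower with OVA+PM10 (median 0.92). Epcam had 37.2, 46.1 and 56.7 FPKM and Cdh1 60.0, 62.1 and 69.2 FPKM. With the length trend removed, the PM10 counts were 0 higher and 5 lower of the type 1 cell markers (median -0.39) and 1 and 3 of the endothelial (median 0.21). They were 1 and 3 of the club cell (median -0.20) and 0 and 1 of the epithelial markers (median -0.01), beside 7.70% and 11.3% of all genes. For OVA+PM10 they were 0 and 17, 0 and 9, 6 and 0, and 4 and 0 in the same order, beside 7.59% and 8.37%. Scaling to the same sum gave, for PM10, 0 higher and 11 lower of the type 1 cell markers (median -1.80), 0 and 8 of the endothelial (median -1.30), 0 and 9 of the club cell (median -1.07) and 0 and 3 of the epithelial markers (median -0.86). For OVA+PM10 it gave 0 and 17, 0 and 12, 4 and 0, and 3 and 0 in the same order, with club cell and epithelial medians of 0.31 and 0.29. It turned the PM10 ratios of Scgb1a1 (-1.01), Epcam (-0.92) and Cdh1 (-1.18) and their OVA+PM10 ratios (-0.05, -0.04 and -0.44). The part of these shifts in the values of the 10 genes was not tested. The 10 were also set against 4 epithelial genes, which themselves differed between the libraries. Their deposited PM10 and OVA+PM10 ratios were 1.41 and 1.83 for Krt18, 1.59 and 1.25 for Cldn7, 0.30 and 0.59 for Epcam, and 0.05 and 0.20 for Cdh1. Relative to these 4 genes, the OVA+PM10 ratios of the 10 were lower by 0.98, with 6 at least 2-fold below control and 0 above. Of all genes, 5548 were then lower and 332 higher. Sftpd was nearest to level at 0.05, and its PM10 ratio was 1.07.

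The genes whose pair of ratios to control came nearest to the median of the 10 were Eif4a2, Mbnl1, Trim8, Nrd1 and Lrrfip1, among 2485 candidates with at least 20 FPKM in every library. They lay 0.04 to 0.06 from it on the log2 scale, over 3 libraries. Eif4a2, an RNA helicase of translation initiation, had 142.3 FPKM in the control, 142.5 FPKM in the PM10 and 106 FPKM in the OVA+PM10 library.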

How the data were processed

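RNA from 3 lung libraries (control, PM10 and OVA+PM10, 1 each, assigned by title) was sequenced after strand-preserving library preparation, per the labels. The deposited values were FPKM as the authors made them, a unit inferred from the values because no header names it. TopHat and mm10 were used, per the submitters' processing notes, while the sources used here do not give counter, annotation, strand use or the handling of multiply mapped reads.

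The deposited FPKM were not rescaled. A log2 ratio of FPKM + 1, which understates changes of low genes, was taken for each pair of libraries, and a gene was counted as past 2-fold where its higher value was 1 FPKM or more. No test, p-value or interval was possible. Transcript lengths and coordinates came from GENCODE M21 (GRCm38), matched by symbol for 95.5% of genes. The length trend was a running median of the ratios along transcript length. Read numbers were estimated from the lowest values of genes with 1 annotated transcript and are approximate. Alternatives were pseudocounts of 0.25 and 5, no filter or 5 FPKM, 4 other scalings, removal of the length trend, and thresholds of 1.5-fold and 4-fold. The code was tested on simulated data (Python 3.11.15, pandas 2.3.3, scipy 1.17.1).

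The 10 genes and the gene lists were chosen with earlier results of these data known. Named genes were the 10, a set chosen from the lists for their roles, and the 5 with the nearest pattern. Spry2, Spry4, Dusp6, Etv4 and Lyz2 lay outside this rule and were named after their values were seen.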

Additional observations from a re-analysis of the deposited data

How the results depend on the processing

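No paired analysis was possible because each group had 1 library, and for the same reason no library could be left out. Another pseudocount, another filter, scaling by the median ratio and scaling by the upper quartile kept all 30 ratios of the 10 genes within 1.5 times of the reported value. Removing the length trend moved 3 ratios by more, scaling to the same sum 27 and scaling to 4 epithelial genes 20. None of the ratios of the 10 genes that were past 2-fold turned its direction under these settings. A filter leaves a ratio as it is and a pseudocount cannot turn its direction, so only the scalings and the length trend could have done so.

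For PM10 against control (2 higher, 2 lower, median 0.04), scaling to the same sum gave 0 higher, 6 lower and a median of -1.19, scaling to epithelial genes 1 higher and a median of -0.81, removal of the length trend 1 and 1, and a 4-fold threshold 0 and 1. For OVA+PM10 against control (1 higher, 1 lower, median -0.40), scaling to the same sum gave 0 higher, 5 lower and a median of -1.04, scaling to epithelial genes 0, 6 and -1.37, removal of the length trend 0 and 0, thresholds of 1.5-fold and 4-fold 2 and 5 and then 0 and 0, and a pseudocount of 5 or the upper quartile 0 lower. For OVA+PM10 against PM10 (2 higher, 2 lower, median -0.34), scaling to the same sum gave 0 lower and a median of 0.25, scaling to epithelial genes 4 lower, a pseudocount of 5, the upper quartile or removal of the length trend 1 lower, and thresholds of 1.5-fold and 4-fold 4 lower and then 0 and 0.

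Over all genes, the PM10 split of 1869 higher and 1907 lower became 262 and 7392 with scaling to the same sum, 491 and 5171 with scaling to epithelial genes, 1267 and 749 with a pseudocount of 5, 1017 and 1486 without the length trend, 3606 and 3490 at 1.5-fold and 303 and 525 at 4-fold. The OVA+PM10 split of 1381 and 1204 became 652 and 3560, 332 and 5548, and 694 and 524 under the first 3 of these. OVA+PM10 against PM10, with 1604 and 1220, became 3354 and 341 with scaling to the same sum and 476 and 668 with a pseudocount of 5. Depth limits the 10 genes little, the absence of replicates entirely.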

Other observations

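Other cell types that take part in surfactant handling, or that could add their RNA to a lung homogenate, differed between the libraries too. Of 18 alveolar macrophage markers, 6 were at least 2-fold higher and 1 lower with PM10 (median log2 ratio 0.82), and 5 were higher and 5 lower with OVA+PM10 (median 0.27). The chitinase-like Chil3 had 93.4 FPKM in the control, 641 FPKM in the PM10 and 2106 FPKM in the OVA+PM10 library, a value that depends on how reads shared with its close relative Chil4 were assigned. Of 12 markers of mature dendritic cells, in some species a site of Lamp3 expression, 3 were higher and 0 lower with PM10 (median 0.52), and 4 were higher and 0 lower with OVA+PM10 (median 0.73). Lamp3 itself had log2 ratios of 0.08 and -0.80, both within 2-fold. Of 14 ciliated cell markers, 5 were higher with PM10 (median 0.57) and 12 with OVA+PM10 (median 1.77), and none was lower. Of 12 fibroblast markers, 3 were higher and 4 lower with PM10 (median -0.61), and 3 were higher and 6 lower with OVA+PM10 (median -0.77). With the same sum, 0 of the fibroblast markers were higher and 8 and 7 lower, with medians of -1.84 and -1.42. Of 7 red blood cell genes measured, with globin copies that share reads among them, 2 were higher and 1 lower with PM10 (median 0.68), and 4 were higher and 1 lower with OVA+PM10 (median 1.07). Removing the length trend gave PM10 medians of 0.28 for macrophage, 0.05 for dendritic, 0.50 for ciliated, -0.37 for fibroblast and 0.43 for red blood cell genes. The PM10 counts were then 7 higher and 2 lower, 2 and 1, 3 and 1, 1 and 3, and 2 and 1. With scaling to the same sum, the PM10 medians of macrophage (-0.35), dendritic (-0.35), ciliated (-0.64) and red blood cell genes (-0.45) and the OVA+PM10 median of macrophage genes (-0.34) lay below 0, and the OVA+PM10 medians of dendritic (0.11), ciliated (1.40) and red blood cell genes (0.42) stayed above it.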
